A study of Mus musculus with 9 samples.

Results

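The genes described here are the transcriptional output and the internal signal carriers of bone morphogenetic protein (BMP) signalling: Id1, Id2, Id3, Id4, Smad1, Smad5, Smad9, Smad6, Smad7 and Atoh8. They were chosen by name, and each of the 10 had exactly 1 row among the 24102 rows of the deposited table. RNA was sequenced from green-fluorescent cells sorted out of dissociated mouse limbs at stage E12.5. Mutant cells had the genotype Shox2(Cre/-);Rosa(mTmG) and control cells Shox2(Cre/+);Rosa(mTmG). Both groups therefore carried Cre at 1 Shox2 allele and the mTmG reporter, which turns from red to green membrane fluorescence in cells that have made Cre and in their descendants. The controls kept 1 normal Shox2 allele, and no source used here tells which part of Shox2 is missing from the second mutant allele. The table holds 3 mutant and 3 control columns, 1 of each from litters 1, 2 and 3, and the number of embryos behind a column is not given. Litter 1 has 2 mutant samples in the labels, and whether its mutant column is 1 of them or both is not given. The 2 whole-limb samples were not analysed here.

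BMP ligands bind paired serine-threonine kinase receptors, which phosphorylate the receptor-regulated SMAD proteins 1, 5 and 9. These join SMAD4, enter the nucleus and switch on target genes, among which the Id genes are the most widely used readout. ID proteins have a helix-loop-helix but no DNA-binding region, so they hold E proteins and other bHLH factors away from DNA. SMAD6 and SMAD7 are induced by the same pathway and inhibit it, and ATOH8 is a bHLH transcription factor induced by BMP signalling in several cell types. In the limb, BMP signalling drives cartilage condensation, joint and digit formation and the death of interdigital cells. SHOX2 is a homeodomain protein needed for the proximal part of the limb skeleton.

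Promoter sequences are shown for Id2, Id4, Smad9 and Atoh8, the genes on which the comparison below turns, so that the letters of the SMAD-type GC-rich motif can be seen. RefSeq promoters on GRCm38.p6 were available for 8 of the 10 genes, and the 250 bases before the annotated start are given 5′ to 3′ on the gene's strand. Capitals mark GGCNCC on either strand, a relaxed form of GGCGCC, which is counted within it. The Id2 promoter lies at chr12:25096093-25096342 on the minus strand, that of Id4 at chr13:48260866-48261115 on the plus strand, that of Smad9 at chr3:54755332-54755581 on the plus strand and that of Atoh8 at chr6:72235578-72235827 on the minus strand.
Id2: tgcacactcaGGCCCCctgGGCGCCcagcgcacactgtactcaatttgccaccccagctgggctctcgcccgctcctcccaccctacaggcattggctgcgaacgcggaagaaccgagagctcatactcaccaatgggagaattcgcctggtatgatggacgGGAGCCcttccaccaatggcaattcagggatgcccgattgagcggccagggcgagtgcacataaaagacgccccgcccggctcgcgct
Id4: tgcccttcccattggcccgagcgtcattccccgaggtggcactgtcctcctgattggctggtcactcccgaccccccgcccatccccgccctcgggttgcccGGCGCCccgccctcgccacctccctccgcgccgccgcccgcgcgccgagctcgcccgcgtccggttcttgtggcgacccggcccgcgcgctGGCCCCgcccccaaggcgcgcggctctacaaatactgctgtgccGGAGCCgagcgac
Smad9: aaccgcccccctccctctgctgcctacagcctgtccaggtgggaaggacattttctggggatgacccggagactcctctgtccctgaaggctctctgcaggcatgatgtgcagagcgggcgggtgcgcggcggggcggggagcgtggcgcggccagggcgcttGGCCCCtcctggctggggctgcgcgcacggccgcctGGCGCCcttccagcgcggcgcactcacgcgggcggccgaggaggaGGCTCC
Atoh8: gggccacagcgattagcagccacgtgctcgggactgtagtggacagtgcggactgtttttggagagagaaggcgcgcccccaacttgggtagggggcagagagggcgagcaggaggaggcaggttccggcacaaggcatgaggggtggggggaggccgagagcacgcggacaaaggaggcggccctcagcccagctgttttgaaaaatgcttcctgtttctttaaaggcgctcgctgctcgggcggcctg

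Id2 had GGCNCC 240, 231 and 88 bases before the start, with the match at 231 reading GGCGCC. Id4 had it at 148, 57 and 13 bases, with GGCGCC at 148, and Smad9 at 87, 51 and 6 bases, with GGCGCC at 51. The Atoh8 window had no match. Over all 32851 promoters of the same length, 49.7% held GGCNCC and 9.59% held GGCGCC. The 8 genes had 10 promoters, of which 4 held GGCGCC. Counted by gene, with a match in any of its promoters, 6 of the 8 held GGCNCC and 4 held GGCGCC. These windows were rich in G and C, at 62.8% for Id2, 75.6% for Id4, 73.2% for Smad9 and 63.2% for Atoh8, against a median of 52.4% over all promoters. None of the 8 genes had TAATTA, a homeodomain core motif found in 4.84% of promoters, or the palindromic SMAD element GTCTAGAC, found in 0.167%.

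Values were taken as FPKM, fragments per kilobase of transcript, with the geometric normalisation that the file headers state above each litter. They are thus levels per length that can be compared between genes within a column. The SD and n given with a mean are over n = 3 columns of a group. Shox2 itself was at 16.7, 18.3 and 96.9 FPKM in the mutants of litters 1, 2 and 3, against 217, 222 and 210 FPKM in the controls. The litter 3 mutant thus had 0.462 of the FPKM of its control. The sum of FPKM ran from 347708 to 439109 per column, which does not measure depth. Of 8 limb mesenchyme markers 7 were matched, Shox2 among them, and they summed to 459, 761 and 800.4 FPKM in mutants of litters 1, 2 and 3, against 688, 959.6 and 801 FPKM in controls. Of these, Prrx1 was at 121, 201 and 246 FPKM in mutants and 106, 176 and 184 FPKM in controls, while Pitx1 was at 97.4, 168 and 130.02 FPKM in mutants and 119, 229.7 and 141 FPKM in controls. Shox2 made up most of the fall in the sum in litter 1, and in litters 2 and 3 it fell by more than the sum. The sums are therefore no measure of mesenchyme apart from Shox2. The Y-linked genes Eif2s3y, Kdm5d and Uty were listed at 0 in the litter 2 mutant and were at 4.22 FPKM or more in its control, so sex composition and genotype cannot be told apart in litter 2.

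In both groups the Id genes other than Id4 were the most abundant of the 10. Id3 was highest, at 205 ± 40.0 FPKM in mutants and 187 ± 41.9 FPKM in controls, followed by Id2, Id1 and then Smad5. Between Id3 and Id2 the ranges overlapped in mutants and did not in controls, and between Id2 and Id1 they overlapped in both groups. Smad5 and Smad9, the lowest of the 10, were set apart from every neighbour in this order in both groups. In mutants the order went on with Smad1, Smad6, Smad7, Id4, Atoh8 and Smad9, and in controls with Smad1, Id4, Smad6, Smad7, Atoh8 and Smad9. Id4 thus stood above both inhibitory Smads in the control means and below both in the mutant means. The ranges of Id4 overlapped those of Smad1 and Smad6 in controls, while in mutants Id4 lay below Smad7 in every column.

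Id2 was higher and Id4 lower in every mutant column than in any control column, and neither passed the test after adjustment. Id2, which encodes an inhibitor of E proteins in many progenitor cells, was at 126, 165 and 167 FPKM in the mutants of litters 1, 2 and 3, against 96.3, 121 and 100.05 FPKM in the controls. All mutant columns lay above all control columns. The ratio of mutant to control FPKM was 1.31 in litter 1, 1.36 in litter 2 and 1.67 in litter 3. On the log2(FPKM + 1) scale, which all log2 differences below use, the difference was 0.52 (SE 0.18). The limma unadjusted p was 0.0244, or 0.00431 with litter as a replicate block. It did not pass after adjustment over the 12314 tested rows, with a limma adjusted p of 1.000, or 0.211 with litter as a replicate block. In the fit with no block, the limma unadjusted p missed 0.05 without mutant 2 (0.0831), mutant 3 (0.0846), control 1 (0.0804) or control 3 (0.0794). In the blocked fit, dropping both columns of litter 1, 2 or 3 gave limma unadjusted p-values of 0.0138, 0.000444 and 0.0588. In bulk samples such as these, fewer cells of a type and less RNA per cell cannot be told apart.

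Id4, a divergent family member known mainly from the nervous system, was at 10.1, 10.7 and 11.6 FPKM in the mutants of litters 1, 2 and 3. The controls were at 12.4, 21.4 and 13.7 FPKM, so all mutant columns lay below all control columns. The ratio of mutant to control FPKM was 0.808, 0.502 and 0.846 in litters 1, 2 and 3, and the log2 difference was -0.48 (SE 0.22). The high litter 2 control carries much of this: without it the log2 difference was -0.25, and without the litter 2 pair, with the block, it was -0.25 as well. The litter 2 control also had the fewest rows above 0, at 14782 against 16705 to 17782 in the other columns. Whether that bears on Id4 was not tested. The limma unadjusted p was 0.0645, or 0.0211 with the block, and the limma adjusted p was 1.000, or 0.368 with the block. In RefSeq, Id4 overlaps A330033J07Rik, and whether the authors' counting used strand is not given, so reads of the overlap cannot be assigned.

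Id1 and Id3 had no shared direction over the litters. Id1, the classical direct target of BMP-activated SMADs, was at 91.2, 135 and 132 FPKM in mutants of litters 1, 2 and 3, against 107, 106 and 83.8 FPKM in controls. It was thus lower in the mutant of litter 1 and higher in those of litters 2 and 3, with log2 differences of -0.22, 0.34 and 0.65. Id3, which commonly varies together with Id1, was at 162, 242 and 212 FPKM in mutants and 172, 235 and 155 FPKM in controls. Its log2 differences were -0.09, 0.04 and 0.45 in litters 1, 2 and 3, and the groups overlapped for both genes. Over the 3 litters the log2 difference was 0.26 (SE 0.21) for Id1 and 0.14 (SE 0.23) for Id3. Leaving out 1 column gave Id1 0.44 without mutant 1, 0.16 without mutant 2 and 0.14 without control 3, and the litter 3 pair left out with the block gave 0.058. Column weights gave Id1 0.57 (limma unadjusted p = 0.00367, adjusted p = 0.215). For Id3, leaving out 1 column gave from 0.0098 without mutant 2 to 0.31 without control 2, the litter 3 pair left out with the block gave -0.023, and column weights gave 0.45.

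**Figure D1:**
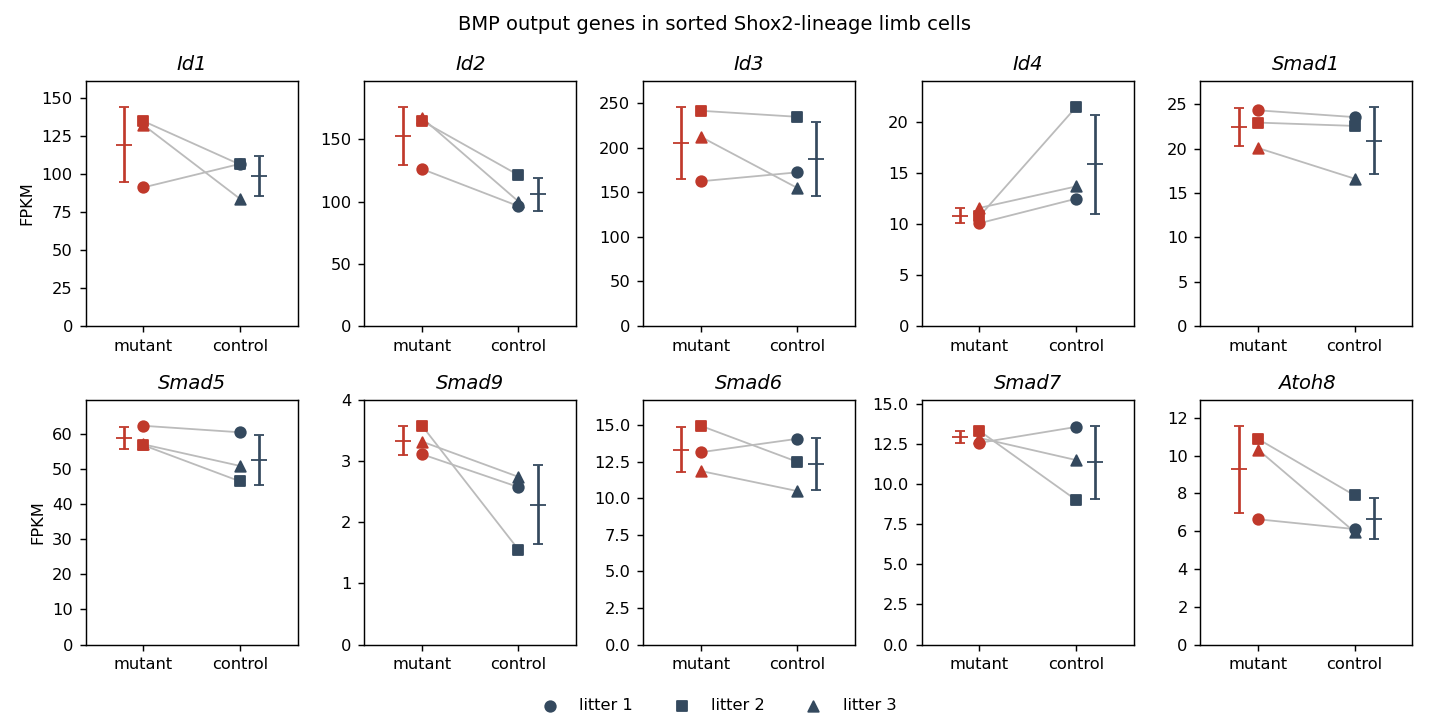
FPKM (vertical axes, from 0) of the 10 genes in mutant (red, left) and control (dark, right) columns, with a marker shape per litter, grey lines joining the columns of a litter, and a dash with bars for mean ± SD (n = 3). Mutant and control points are separate for Id2, Id4 and Smad9 and overlap for the other genes.

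The make-up of the summed Id signal within a column cannot be altered by the scaling of that column. Id2 made up 32.4%, 29.9% and 31.9% of the summed FPKM of the 4 Id genes in the mutants of litters 1, 2 and 3, against 24.8%, 25.1% and 28.4% in the controls. The Id4 share was 2.58%, 1.95% and 2.21% in mutants, against 3.21%, 4.42% and 3.87% in controls. Neither share overlapped between the groups, nor did that of Id3, at 42.0% ± 1.62 in mutants and 45.6% ± 2.50 in controls (SD, n = 3 each). The shares within a column are tied, so a higher Id2 share lowers the others. Id3 FPKM itself overlapped between the groups, with a mean of 205 FPKM in mutants and 187 FPKM in controls. The shares come from the same values as above and are no independent support. The Id1 share was 24.4% ± 0.941 in mutants and 24.4% ± 2.81 in controls (SD, n = 3 each), and its groups overlapped. The summed signal was 390, 552 and 523 FPKM in mutants of litters 1, 2 and 3, against 388, 484 and 353 FPKM in controls. With 3 columns against 3, the exact two-sided permutation test cannot give a p below 0.1, the value reached by every quantity whose groups do not overlap.

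**Figure D2:**
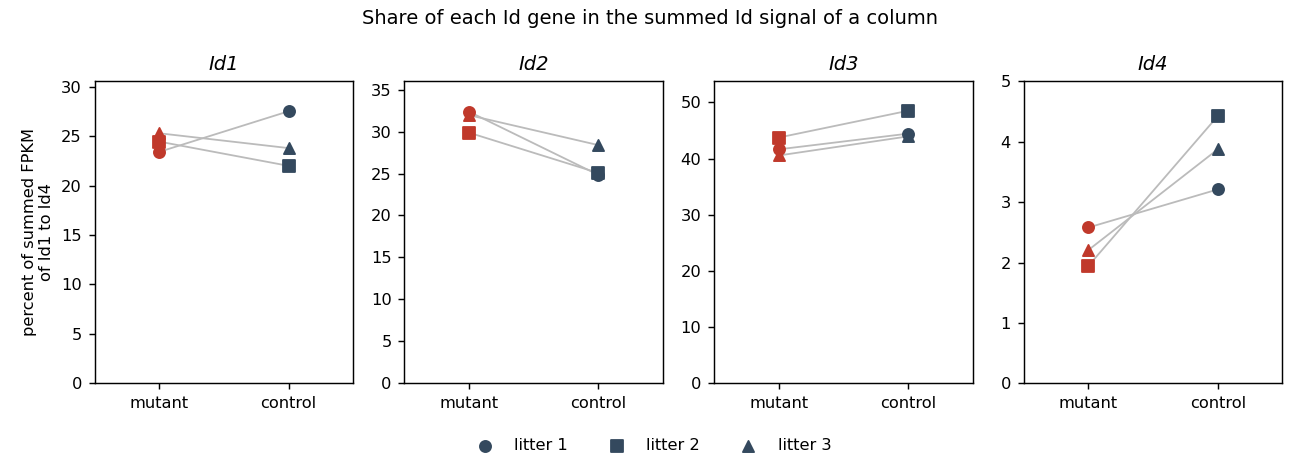
Share of each Id gene in the summed FPKM of Id1 to Id4 (percent, vertical axes from 0) in mutant (red, left) and control (dark, right) columns, with a marker shape per litter and grey lines joining the columns of a litter. The Id2 share is higher and the Id3 and Id4 shares are lower in every mutant column than in any control column.

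Among the receptor-regulated Smads, which carry the signal from the receptors to the nucleus, each gene was higher in the mutant of all 3 litters, by amounts that for Smad1 and Smad5 lay within the spread between columns. Smad9, the least abundant of them and known as a weaker activator than the other two, was at 3.11, 3.58 and 3.32 FPKM in mutants of litters 1, 2 and 3. Its controls were at 2.58, 1.55 and 2.74 FPKM, so the groups did not overlap. The log2 difference was 0.42 (SE 0.19), and again the litter 2 control carries much of it, since the difference was 0.24 without that column. The limma unadjusted p was 0.0666, or 0.0488 with the block, and the limma adjusted p was 1.000, or 0.426 with the block.

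Smad5, the most abundant receptor-regulated Smad, was at 62.2, 56.7 and 56.9 FPKM in mutants, against 60.4, 46.4 and 50.8 FPKM in controls of litters 1, 2 and 3. Smad1 was at 24.3, 22.9 and 20.1 FPKM in mutants and 23.5, 22.6 and 16.6 FPKM in controls. The litter 1 and litter 2 pairs of Smad1 were nearly level, and the litter 3 control was the lowest column. The log2 differences were 0.16 (SE 0.15) for Smad5 and 0.11 (SE 0.18) for Smad1. Without the litter 3 control that of Smad1 was -0.041, and leaving out other single columns gave 0.051 to 0.20. That of Smad5 was 0.079 without control 2 and 0.26 without control 1. Smad5 supplied 69.5% ± 1.38 of the summed FPKM of the 3 genes in mutants and 69.3% ± 3.32 in controls (SD, n = 3 each). The Smad9 share was 3.97% ± 0.438 in mutants and 3.03% ± 0.855 in controls (SD, n = 3 each), and here the groups overlapped.

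The inhibitory Smads, which block receptors and compete for SMAD4, had no shared direction over the litters. Smad6 was at 13.1, 15.0 and 11.9 FPKM in mutants of litters 1, 2 and 3, against 14.1, 12.49 and 10.5 FPKM in controls. Smad7, which also restrains TGF-beta signalling, was at 12.6, 13.3 and 12.9 FPKM in mutants and 13.6, 9.01 and 11.5 FPKM in controls. Both were lower in the mutant of litter 1 and higher in those of litters 2 and 3, and their groups overlapped. The log2 differences were 0.10 (SE 0.16) for Smad6 and 0.19 (SE 0.17) for Smad7. That of Smad6 was 0.00092 without control 3, 0.024 without mutant 2, 0.18 without mutant 3 and 0.20 without control 1. That of Smad7 was 0.045 without control 2 and 0.31 without control 1. Smad7 overlaps Gm41776 in RefSeq, with the same limit on assigning reads as for Id4.

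Atoh8 was at 6.63, 10.9 and 10.3 FPKM in mutants of litters 1, 2 and 3, against 6.11, 7.89 and 5.95 FPKM in controls. It was higher in the mutant of each litter, but the litter 1 mutant lay below the litter 2 control. The log2 difference was 0.41 (SE 0.22), with 0.10, 0.42 and 0.70 in litters 1, 2 and 3. The limma unadjusted p was 0.106, or 0.0263 with the block, and the limma adjusted p was 1.000, or 0.384 with the block. Column weights gave a difference of 0.67, and the litter 3 pair left out with the block gave 0.26. Leaving out 1 column gave 0.29 to 0.61, and the unadjusted limma p was under 0.05 only without mutant 1, at 0.0147. Atoh8 overlaps Gm52906 in RefSeq.

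Taking the 10 genes as a list, 9 had a positive and 1 a negative log2 difference, and the median was 0.18, against -0.04 over all tested rows. By litter the median was -0.02 in litter 1, 0.31 in litter 2 and 0.23 in litter 3, where all tested rows had -0.07, -0.03 and 0.00. Mutants were higher for 5 of the genes in litter 1 and for 9 in each of litters 2 and 3, where 39.7%, 46.7% and 51.0% of all tested rows were above 0 in litters 1, 2 and 3. In limma 0 of the 10 passed the adjusted threshold of 0.05, with or without the block, as did 0% of all rows in each fit. At an unadjusted p under 0.05 without the block, 1 gene was higher, where 2.21% of rows were, and 0 were lower, where 1.36% were. With the block, 3 were higher and 1 lower, where 5.34% and 6.29% of rows were. Groups did not overlap for 2 genes higher and 1 lower, where 4.22% and 5.03% of rows had such values. The direction was the same in every litter for 5 genes higher in mutants and 1 lower, where 15.7% and 22.3% of rows behaved so. When the litter 2 pair was left out of the blocked fit, 1 gene, Id2, passed upward (limma adjusted p = 0.0145), where 2.56% of rows did. Its log2 difference there was 0.56 (SE 0.15). Without the litter 1 pair it was similar, at 0.59 (SE 0.16), with a limma adjusted p of 0.713. The pass thus hung on which pair was left out, and such fits have few columns from which to estimate the spread. A second deposited file lists 1352 symbols as direct targets that Shox2 represses, and it holds 0 of the 10. The table of values has 23809 distinct names, so a list of this length would hold few or none of most sets of 10 genes. The 0 therefore says little about these genes.

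**Figure D3:**
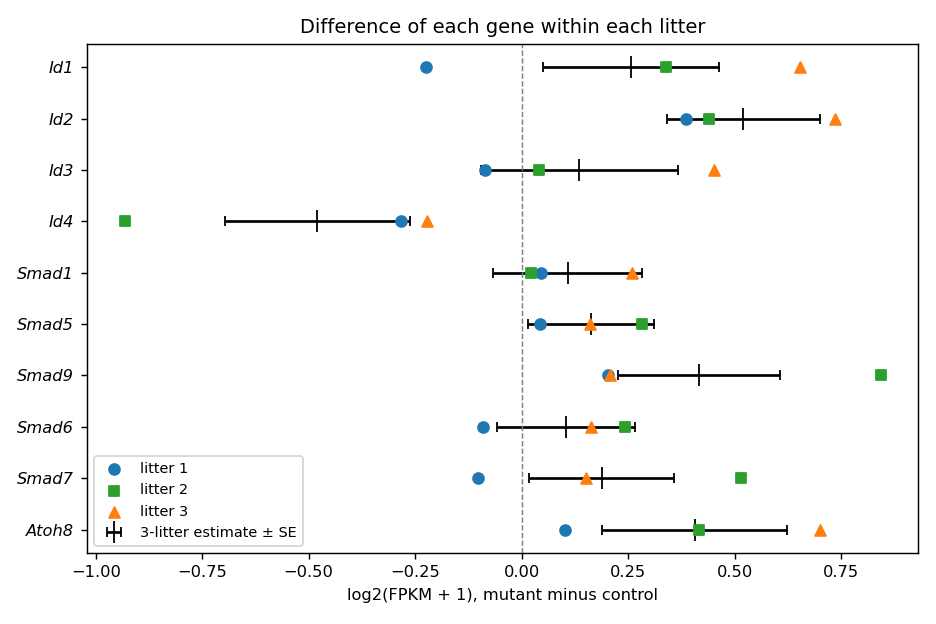
Mutant minus control difference in log2(FPKM + 1) (horizontal axis) for each of the 10 genes (rows), with 1 coloured marker per litter and a black bar for the 3-litter estimate ± SE. Id2 lies above 0 and Id4 below 0 in all 3 litters, while Id1, Id3, Smad6 and Smad7 lie below 0 in litter 1 only.

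Over the 6 columns, the gene most like the mean log2 level of Id1, Id2 and Id3 was Atoh8 (Pearson r = 0.99), then Lrrtm1 (r = 0.98), which encodes a synaptic adhesion protein, and Fbln7 (r = 0.97), a fibulin of the extracellular matrix. Isl1, a LIM homeobox factor, had the lowest value (r = -0.99), before Ino80c (r = -0.99), a chromatin remodelling subunit, and Tmem57 (r = -0.97). Isl1 was at 6.88, 3.86 and 3.91 FPKM in mutants of litters 1, 2 and 3, against 7.93, 5.11 and 8.996 FPKM in controls. The other Smad genes followed the Id mean less closely, from r = -0.02 for Smad5 to r = 0.44 for Smad6, and Id4 had r = -0.08. These 6 points share litters and a common scaling, and the genes were picked as extremes, so the values are a description.

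Upstream of these genes, 3 of 9 BMP ligand genes were higher and 0 were lower in limma with an unadjusted p below 0.05, or 4 higher and 1 lower with the block, with a median log2 difference of 0.15. For this list and the receptors below, the shares of all tested rows were 2.21% higher and 1.36% lower, or 5.34% and 6.29% with the block. Gdf5, which acts in developing joints, had 44.1, 49.0 and 47.0 FPKM in mutants of litters 1, 2 and 3, against 24.3, 19.2 and 20.5 FPKM in controls. Its log2 difference was 1.10 (SE 0.14; limma adjusted p = 0.467, or 0.0643 with the block). Bmp3, which opposes other BMPs, averaged 6.17 ± 0.484 FPKM in mutants and 3.76 ± 1.06 FPKM in controls, and Bmp5 28.6 ± 3.40 FPKM in mutants and 21.5 ± 2.47 FPKM in controls. Of the 12 receptor and co-receptor genes, 0 were past that unadjusted threshold, or 2 higher and 0 lower with the block, with a median of 0.19. Bmpr1b, the type I receptor used by GDF5, was at 9.60 ± 0.786 FPKM in mutants and 7.52 ± 1.19 FPKM in controls. Bmpr2, the main type II receptor, was at 29.9, 25.6 and 25.8 FPKM in mutants and 25.9, 20.3 and 20.0 FPKM in controls of litters 1, 2 and 3. The co-receptor Tgfbr3 was at 12.3 ± 0.620 FPKM in mutants and 14.5 ± 1.80 FPKM in controls.

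Secreted antagonists keep BMP ligands from their receptors. Of 11 tested antagonist genes, 3 were higher and 0 were lower with an unadjusted p below 0.05, or 3 and 1 with the block, with a median of 0.08. Of all tested rows, 2.21% were higher and 1.36% lower, or 5.34% and 6.29% with the block. Chrdl1, a secreted chordin-like inhibitor, was at 27.6, 28.8 and 28.1 FPKM in mutants of litters 1, 2 and 3, against 14.2, 9.40 and 13.2 FPKM in controls. Grem1 (gremlin) averaged 15.9 ± 3.18 FPKM in mutants and 10.4 ± 2.12 FPKM in controls, and Nog (noggin) was at 9.19, 16.5 and 11.8 FPKM in mutants and 6.001, 9.55 and 7.74 FPKM in controls of litters 1, 2 and 3. Chrdl1 and Grem1, like Bmp5 above and Bhlhe40 below, are in the deposited list of repressed genes. Whether it was drawn from these samples is not given, so their direction is not independent evidence.

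Partners of the SMAD and ID proteins had list medians near 0. Of 14 Smad partners and modulators, 0 were higher and 1 was lower at an unadjusted p under 0.05, or 0 and 2 with the block, with a median of -0.02. For this list and the bHLH factors below, the shares of all tested rows were 2.21% higher and 1.36% lower, or 5.34% and 6.29% with the block. Smad4, the shared partner, was at 47.9, 51.9 and 49.5 FPKM in mutants and 47.3, 34.6 and 46.4 FPKM in controls, and the groups did not overlap. Zbtb7a, a zinc-finger factor, averaged 3.66 ± 0.440 FPKM in mutants and 5.11 ± 0.763 FPKM in controls, and the antiproliferative gene Tob2 9.89 ± 2.62 FPKM in mutants and 12.9 ± 1.90 FPKM in controls. Of 14 bHLH factors, among them E proteins that ID proteins bind, 1 was higher and 2 were lower, or 1 and 3 with the block, with a median of 0.01. Hes1, a Notch-responsive repressor, averaged 18.8 ± 1.23 FPKM in mutants and 34.5 ± 5.72 FPKM in controls, and the tendon factor Scx 57.5 ± 10.2 FPKM in mutants and 80.3 ± 3.76 FPKM in controls. Bhlhe40, a repressor tied to stress and the clock, was at 8.39, 17.7 and 2.91 FPKM in mutants and 1.72, 2.87 and 1.55 FPKM in controls of litters 1, 2 and 3.

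Other transcription factors that respond to BMP had a negative median difference. Of 10 tested, 0 were higher and 2 were lower at an unadjusted p under 0.05, or 0 and 6 with the block, with a median log2 difference of -0.43. Of all tested rows, 2.21% were higher and 1.36% lower, or 5.34% and 6.29% with the block. Sp7, the osteoblast factor osterix, was at 0.921, 1.54 and 2.15 FPKM in mutants of litters 1, 2 and 3, against 3.22, 5.78 and 5.34 FPKM in controls. Runx2, its upstream regulator, was at 3.62, 10.4 and 11.1 FPKM in mutants and 9.10, 20.0 and 19.3 FPKM in controls. Gata2 averaged 0.749 ± 0.200 FPKM in mutants and 1.67 ± 0.758 FPKM in controls. Gata2 was under 1 FPKM in every mutant column and was tested only because its controls reached 1 FPKM. The filter thus favoured its direction, and its place among the 2 lower genes is no support for a fall. In all 6 lists, 0 genes passed the limma adjusted threshold with or without the block.

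**Figure D4:**
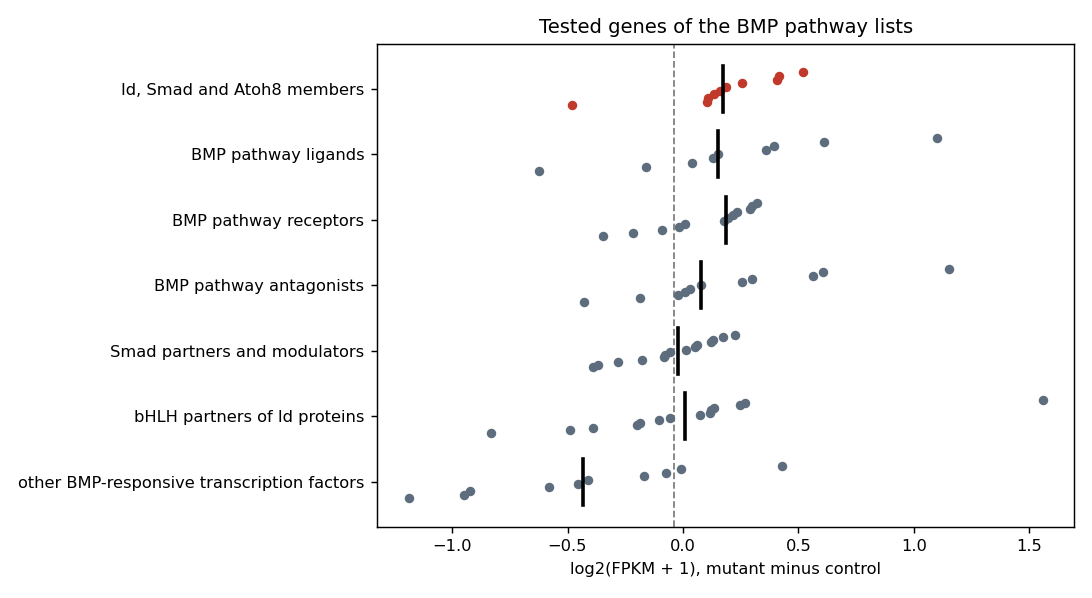
Mutant minus control difference in log2(FPKM + 1) (horizontal axis) of each tested gene (dots) by list (rows), with a black line at each list's median and a dashed line at the median of all tested rows, -0.04. The medians are 0.18 for the Id, Smad and Atoh8 genes and -0.43 for the other BMP-responsive transcription factors.

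Markers of other cell types are given here beside these values. Endothelial cells express Id1, Id3, Smad6 and Atoh8, and the summed level of 11 endothelial markers ran from 12.7 to 15.6 FPKM in mutants and from 17.4 to 24.4 FPKM in controls, so the groups did not overlap, and 0 of the markers were at 0. Their most abundant member, Egfl7, was at 6.18 to 9.16 FPKM in mutants and 4.12 to 10.1 FPKM in controls, and Cdh5, a defining marker, at 0.498 to 0.659 FPKM in mutants and 0.369 to 3.17 FPKM in controls. Of 5 tested markers, 0 were higher and 1 was lower at an unadjusted limma p under 0.05, or 0 and 2 with the block. Of all tested rows, 1.36% were lower, or 6.29% with the block. Groups did not overlap for 2 of the 5, Kdr and Cldn5, both lower, where 5.03% of rows were so. Cldn5, at 0.611 to 0.781 FPKM in mutants and 1.38 to 3.66 FPKM in controls, was tested only through its controls. The sum of 10 surface ectoderm markers ran from 15.1 to 20.1 FPKM in mutants and from 17.5 to 40.0 FPKM in controls, highest in the litter 2 control, the column with the highest Id4 and the lowest Smad9. Immediate early genes, which respond to tissue dissociation, summed to 340, 629 and 589 FPKM in mutants of litters 1, 2 and 3, against 530, 745 and 553 FPKM in controls. The sum was lower in the mutant of litters 1 and 2, and of these Id1 and Id3 were lower in the mutant in litter 1 and higher in litter 2. The 6 cartilage markers summed to 516, 891 and 739 FPKM in mutants of litters 1, 2 and 3, against 569, 634 and 654 FPKM in controls. Of the 6, 2, Sox5 and Sox6, were higher with an unadjusted limma p below 0.05 and 0 were lower. With the block 2 were higher and 1 was lower, where 5.34% and 6.29% of all tested rows were, or 2.21% and 1.36% without it. Matn1 was lower in the mutant of each litter, at 24.0, 43.0 and 39.9 FPKM against 40.9, 43.9 and 64.6 FPKM in controls. Sox9, Col2a1 and Acan changed direction between litters. Sox5 was at 10.1 to 12.7 FPKM in mutants and 5.19 to 6.86 FPKM in controls, and Sox6 at 9.60 to 11.3 FPKM in mutants and 6.98 to 8.10 FPKM in controls, so neither overlapped, as with Id2 and Smad9. Sox5 is in the deposited list of repressed genes. The 6 matched of 9 red cell markers summed to 715, 382 and 229 FPKM in mutants of litters 1, 2 and 3, against 489.8, 595 and 328 FPKM in controls. The sums ran from 34.2 to 37.4 FPKM in mutants and 18.9 to 59.8 FPKM in controls for muscle, and from 73.9 to 124 FPKM in mutants and 54.0 to 117 FPKM in controls for nerve and glia. For leukocytes, with Ptprc and Aif1 at 0 in the litter 2 control, they ran from 9.60 to 17.3 FPKM in mutants and 12.1 to 15.1 FPKM in controls. The part of these markers in the results was not tested.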

How the data were processed

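TopHat, Cuffdiff and the mm9 build are named in the submitters' processing notes, while versions, annotation and strand use were not available from the sources read. The deposited values were taken as FPKM, the unit of Cuffdiff, and per the file headers they were normalised geometrically, as stated above each litter separately. Levels set across litters may thus rest on separate scalings. Depth is unknown: of rows above 0 and under 0.15 FPKM in both columns of a litter, 8.13%, 6.12% and 44.5% in litters 1, 2 and 3 had a log2 ratio within 0.05 of -1, 0 or 1, and whole reads were not recovered.

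The 12314 rows that reached 1 FPKM in 3 or more columns were tested, all 10 members among them. Mutant and control columns were set against each other on log2(FPKM + 1), a scale that understates changes of low genes, with limma 3.58.1 (R 4.3.3, trended prior). Adjustment was that of Benjamini and Hochberg over all tested rows, at 0.05. The fit was run on simulated data with less spread and larger changes than seen for the members, and with no litter effect. That run checks the code only and does not show how well the fit performs on these data. Separate embryos are not stated, so p-values measure the spread between columns, which may be technical.

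The main fit has no litter term. The labels' numbers mark litters and so pair the columns: deviations from the group means correlated across genes at 0.87, 0.57 and 0.77 within litters 1, 2 and 3. The fit with litter as a replicate block is given beside it.

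Members, pathway lists and marker lists were chosen with earlier results of these data known. The text names all members, Shox2, the 3 genes of each pathway list with the smallest unadjusted p, and the 3 genes most and least like the mean of Id1, Id2 and Id3. Single markers and the family shares were chosen after values were seen. Promoters came from RefSeq on GRCm38.p6, and no coordinates were carried between builds. Alternatives covered the pseudocount, row filter, scaling, column weights, block and left-out columns.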

Additional observations from a re-analysis of the deposited data

How the results depend on the processing

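Over 169 values of the 10 genes under the alternative settings, 167 kept their direction. The exceptions were Smad1 without control replicate 3, at -0.041, where leaving out a column or a litter pair gave up to 0.20, and Id3 with the replicate block without the litter 3 pair, at -0.023, where such values reached 0.31. Id2 ran from 0.41 to 0.68, past the adjusted threshold only with the replicate block without the litter 2 pair, and Id4 from -0.62 to -0.25. Smad9 had no value with a mean of 5 FPKM or more. Genes past the adjusted threshold over all rows numbered 0, or 439 at an unadjusted p under 0.05, against 15 with column weights in limma and 0 with the replicate block, where 1433 were at an unadjusted p under 0.05. Leaving out 1 column gave 0 to 1 such genes, and leaving out a litter pair with the block 0 to 534, the highest without litter 2, then 36 without litter 3. The number of the 10 genes at an unadjusted p under 0.05 was 1, against 4 with the replicate block and 5 with column weights. It ran from 0 to 4 when a column or pair was left out, with 0 without mutant replicate 2, mutant replicate 3 or control replicate 3 and 3 without mutant replicate 1. The causes of these shifts were not tested. Depth is unknown, so no counting error could be given.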

Other observations

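The opposite differences of Id2 and Id4 can be read as 1 number, the ratio of their FPKM within a column, which was chosen after the values were seen. It was 12.55, 15.4 and 14.5 in the mutants of litters 1, 2 and 3, against 7.74, 5.67 and 7.33 in the controls. The mean ratio was 14.1 ± 1.44 in mutants and 6.91 ± 1.10 in controls (SD, n = 3 each). Since the groups did not overlap for either gene and the directions were opposite, the ratio could not overlap either, so it restates those values and adds no support. Litter 3, whose mutant kept the most Shox2 RNA, had an Id2 to Id4 ratio between those of the other mutants. For single genes, the ratio of mutant to control FPKM was highest in litter 3 for Id1, Id2, Id3, Id4, Smad1 and Atoh8. It was highest in litter 2 for Smad5, Smad6, Smad7 and Smad9. A link to the remaining Shox2 RNA was not tested.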
